A study of Mus musculus with 12 samples.

Results

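Mouse embryonic stem cells with a knockout of DHX36 were compared directly with cells with a knockout of FANCJ, so that one G-quadruplex helicase knockout is read against the other. The 3 libraries titled as DHX36 knockout (DHX36 KO) and the 3 titled as FANCJ knockout (FANCJ KO) were chosen by their titles alone, and they are 6 of the 12 libraries of the series. Every gene of the count table entered, spike-in transcripts were dropped, and no wild-type library took part in the test. The cells of all 12 libraries were the IB10 line, derived from 129/Ola mice, grown untreated on gelatin in serum with leukaemia inhibitory factor and medium conditioned by rat liver cells. The targeted gene is Dhx36 in DHX36 KO cells and Brip1, the mouse gene for FANCJ, in FANCJ KO cells, and the other 6 libraries are 3 of the double knockout (DHX36/FANCJ KO) and 3 of the wild type (WT). Those 6 were used only to show levels. Transcripts were counted by their 3′ ends with a bulk protocol similar to CEL-Seq2, in which barcoded samples are pooled before amplification. The sources used here do not say whether a knockout was derived from 1 clone or several, nor which stretch of either gene was removed.

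Both proteins are helicases that unwind G-quadruplexes, stacked structures that form where a strand of DNA or RNA carries runs of guanine. DHX36 binds such structures tightly and resolves them in RNA as well as in DNA, and it is known from studies of mRNA stability and translation. FANCJ works on DNA at stalled replication forks, and it also belongs to the Fanconi anaemia pathway, which repairs crosslinks between DNA strands. The cells studied here, grown in serum with leukaemia inhibitory factor, expressed genes of naive pluripotency and also genes of the formative state, which precedes differentiation.

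Relative to FANCJ KO cells, DHX36 KO cells had more transcripts of the formative pluripotency genes Otx2, Lef1, Pim2 and Dnmt3a, of Dppa3 and Trh, and of 14 of 27 ATF4 targets of the integrated stress response, while 2 of those targets were lower. Naive pluripotency genes were called higher in 16 of 34 cases and lower in 5, beside 13 and 2 of 27 formative genes. Over all genes tested 15.4% were higher and 15.0% lower. DHX36 KO cells had fewer transcripts of the imprinted genes H19, Plagl1, Nnat and Peg3, of actin and smooth muscle genes such as Acta2 and Tagln, of simple epithelial keratins and of Col4a1, Col4a2 and Lama1, which encode basement membrane proteins. Genes of chromosome 6 were higher as a group, with a median log2 difference of 0.52. All differences below are DHX36 KO over FANCJ KO on a log2 scale, so a positive value means a higher level in DHX36 KO.

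The DHX36 KO libraries held 8736633, 6223087 and 10919405 counts and the FANCJ KO libraries 7900066, 7718734 and 4936662, so the deepest library of each genotype gives the smallest counting error for low genes. Between 15961 and 17623 genes had a count in these 6 libraries. Mitochondrial transcripts took 11.01% to 12.3% of counts in DHX36 KO and 11.2% to 11.5% in FANCJ KO. No pair of libraries of 1 genotype was as alike as counting noise alone would make it (chi-square over its degrees of freedom 4.11 to 12.3), so none was treated as a copy of another. Principal components were taken over the 500 genes that varied most, and the leading one, with 74.6% of the variance, had the 3 DHX36 KO libraries on one side and the 3 FANCJ KO libraries on the other. On the next component, with 9.42% of the variance, FANCJ KO library 3 lay at 12.96, against -4.32 and -9.65 for FANCJ KO libraries 1 and 2 and -0.14 to 0.67 for the DHX36 KO libraries. The stem cell genes Pou5f1 (118 ± 6.10 CPM in DHX36 KO and 80.9 ± 5.92 CPM in FANCJ KO, SD, n = 3 each here and below) and Nanog (211 ± 16.04 CPM in DHX36 KO and 214 ± 14.3 CPM in FANCJ KO) were present in every library, as in other embryonic stem cells.

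Each knockout was low in its own gene. Dhx36 (ENSMUSG00000027770) lies on the minus strand of chromosome 3 (GRCm38, 62468013 to 62507004). In DHX36 KO libraries it had 98, 56 and 126 counts and in FANCJ KO libraries 444, 387 and 281, which is 10.8, 8.82 and 11.6 CPM (counts divided by normalised library totals and scaled to 1e6) against 57.2, 51.4 and 57.8 CPM. The groups were separate and Dhx36 was 5.23-fold lower in DHX36 KO (log2 -2.39, SE 0.13, adjusted p = 5.76e-09). Brip1 (ENSMUSG00000034329) lies on the minus strand of chromosome 11 (86058138 to 86201193). In DHX36 KO libraries it had 58, 47 and 75 counts, against 1, 2 and 3 in FANCJ KO libraries. Its mean level was 6.92 ± 0.492 CPM in DHX36 KO and 0.337 ± 0.252 CPM in FANCJ KO, and the difference was log2 4.45, SE 0.40, adjusted p = 8.73e-07. The 3′ tags that remain do not show whether either protein was made.

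Because both helicases act on guanine-rich sequence, the promoters of the targeted genes and of the genes with the largest differences were searched for the G-quadruplex motif, which is 4 runs of G, each 3 or longer, with any 1 to 7 bases between neighbouring runs. Both strands were read over 250 bases before to 50 bases after the start that RefSeq gives. Of these 25 genes 21 had a promoter in the RefSeq table, and 6 of them held a match. In the whole table, which also holds genes that were not tested, 6110 of 32851 promoters held one (18.6%). Counted per gene among the genes tested, 3109 held a match and 6461 did not. The share among the named genes was thus not above that of tested genes. Matches on the gene's own strand are printed 5′ to 3′ with the runs of G in capitals, since those runs are what the motif requires; coordinates are of GRCm38.p6, and one of several RefSeq starts was taken for Otx2.
Brip1, chr11:86201353-86201374, minus strand: GGGGtGGGGtttGGGGGaGGGG
Otx2, chr14:48662797-48662826, minus strand: GGGGGGtGGGGGGGacggcGGGGGtGGGGG
Crip1, chr12:113151973-113151993, plus strand: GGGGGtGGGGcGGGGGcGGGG
Mbnl2, chr14:120275658-120275682, plus strand: GGGcGGGGcctgtGGGaaggaaGGG
Otx2 and Crip1 were higher in DHX36 KO and Mbnl2 was lower, so genes with such a match were found in both directions. Cpt1a, which was higher, and Klhl13, which was lower, held matches on the other strand. A match describes these letters and is no evidence that the structure formed.

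Of 12184 genes tested, 3704 differed (30.4%) at an adjusted p under 0.05 by edgeR's quasi-likelihood test, 1880 of them higher in DHX36 KO (15.4%) and 1824 lower (15.0%). The difference was at least 2-fold for 532 higher and 390 lower genes, 922 in all (7.57%), and 5003 genes had an unadjusted p under 0.05. For 5311 genes (43.6%) the 3 libraries of one genotype lay all above or all below those of the other. The median log2 difference over all genes tested was 0.0046, and the median size without its sign was 0.28. Among called genes the median standard error (SE) was 0.13. The labels do not say whether the 3 libraries of each genotype stem from different cultures, so the p-values measure the spread between these libraries, which may be technical. All tests were two-sided.

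Chromosome 6 stood apart from the other autosomes and the X chromosome. Of its 568 tested genes 314 were higher in DHX36 KO (55.3%) and 30 lower (5.28%), and 472 had a positive difference (83.1%). The median was 0.52, a ratio of 1.43, while the medians of the other autosomes and the X chromosome ran from -0.08 to 0.05. The Y chromosome had 5 genes tested, 4 of them higher, with a median of 0.62. Chromosome 6 held 4.66% of genes tested, 16.7% of the genes that were higher in DHX36 KO and 1.64% of those that were lower. Over the 11616 genes elsewhere 1566 were higher (13.5%) and 1794 lower (15.4%), with a median of -0.01.

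The elevation of chromosome 6 was on the DHX36 KO side. Against the WT mean, over 367 genes of the chromosome with at least 10 CPM, the medians were 0.43, 0.45 and 0.45 in the DHX36 KO libraries, -0.04, -0.03 and -0.05 in the FANCJ KO libraries and 0.03, 0.02 and -0.01 in the double knockout, on the log2(CPM + 1) scale. The double knockout, which also carries the DHX36 knockout, did not share it. Along the chromosome, in windows of 10 Mb with at least 10 genes, all 14 medians were positive. They ran from 0.20 to 0.31 in the windows up to 80 Mb, reached 0.52 between 80 and 90 Mb, and lay between 0.58 and 0.91 from 90 to 150 Mb. Of 217 such windows elsewhere 2 had a median of at least 0.3 in size, both on chromosome 10 and both negative, -0.47 over 24 genes at 90 to 100 Mb and -0.34 over 23 genes at 110 to 120 Mb. The window at 90 to 100 Mb was at -0.18 in DHX36 KO and 0.29 in FANCJ KO against WT. The window at 110 to 120 Mb was at -0.21 in DHX36 KO and 0.14 in FANCJ KO. The adjoining window at 120 to 130 Mb lay just under 0.3 in size, at -0.28 over 63 genes. It was at -0.21 in DHX36 KO and 0.03 in FANCJ KO against WT. In the double knockout the windows from 90, 110 and 120 Mb were at -0.11, -0.25 and -0.25 against WT. Genotype and any other difference between these cultures cannot be told apart, so list counts are also given without chromosome 6 where its genes were among those called.

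**Figure D1:**
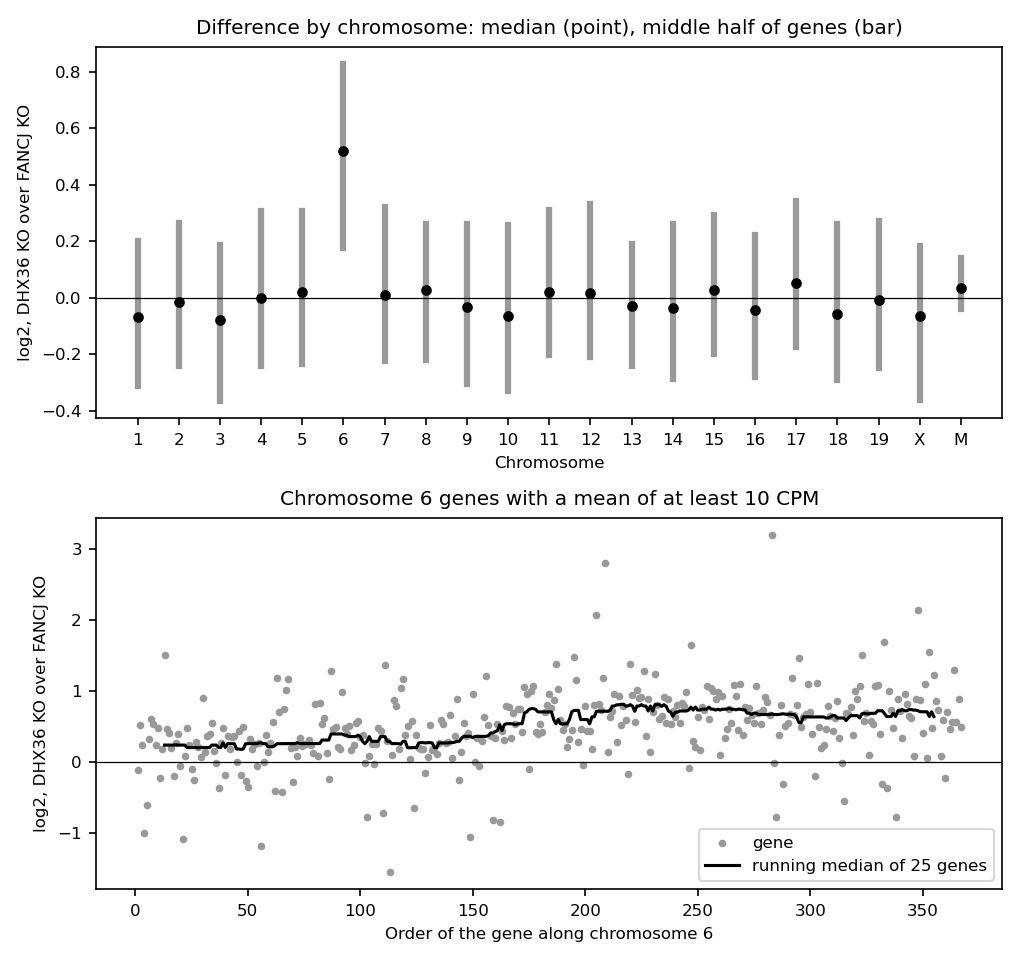
Median log2 difference (DHX36 KO over FANCJ KO) of the tested genes of each chromosome, with a bar from the lower to the upper quartile of its genes (upper panel), and the difference of each chromosome 6 gene with at least 10 CPM in order along the chromosome, with a running median of 25 genes (lower panel). Chromosome 6 lies at 0.52 while the other autosomes and X stay between -0.08 and 0.05, and the running median is higher in the distal part of the chromosome.

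**Figure D2:**
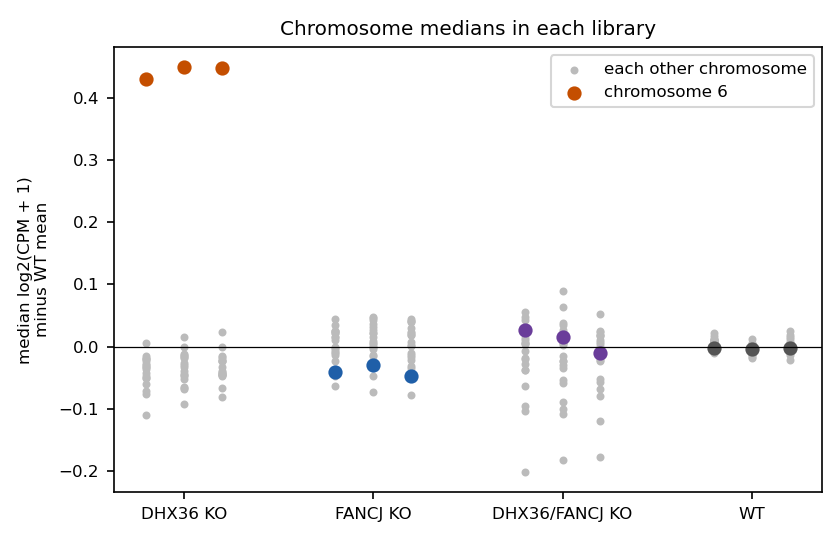
Median log2(CPM + 1) minus the WT mean of each chromosome in each of the 12 libraries, grouped by genotype, with chromosome 6 as the large point and the other chromosomes as small points. The 3 DHX36 KO libraries have chromosome 6 at 0.43 to 0.45, and in the FANCJ KO, double knockout and WT libraries it lies between -0.05 and 0.03.

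Above a mean level of 20 CPM the 2 largest rises were those of Dppa3 and Trh. Dppa3, a chromosome 6 gene whose protein guards maternal methylation marks in the zygote, had 71.0, 60.4 and 63.7 CPM in DHX36 KO libraries, against 6.83, 6.24 and 8.44 CPM in FANCJ KO libraries. The groups were far apart (log2 3.21, SE 0.14, adjusted p = 8.17e-10), and the difference was 2.69 above the median of its chromosome. Trh, on chromosome 6 as well, encodes the precursor of thyrotropin-releasing hormone and had 193, 210.2 and 189 CPM against 25.9, 29.3 and 29.4 CPM (log2 2.81, SE 0.094, adjusted p = 2.99e-11). Otx2, a homeobox factor of the formative state and the anterior embryo, had 93.6, 95.0 and 102 CPM in DHX36 KO libraries and 19.7, 16.7 and 22.9 CPM in FANCJ KO libraries (log2 2.31, SE 0.11, adjusted p = 2.62e-09). Every DHX36 KO library was thus several times above every FANCJ KO library.

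Other genes with large rises had varied roles. Cd37 encodes a tetraspanin of lymphoid cells and averaged 73.9 ± 12.7 CPM in DHX36 KO and 12.3 ± 3.28 CPM in FANCJ KO (log2 2.55, SE 0.17, adjusted p = 4.3e-08). Pfkp, the platelet isoform of phosphofructokinase, which commits sugar to glycolysis, averaged 124 ± 11.4 CPM in DHX36 KO and 28.2 ± 1.5 CPM in FANCJ KO (log2 2.12, SE 0.10, adjusted p = 1.89e-09). Psors1c2 differed by 2.38, the LIM domain gene Crip1 by 2.04, the mRNA export helicase gene Ddx19b by 1.78, the ciliary transition zone gene Tmem231 by 1.72, the haem-binding gene Hebp1 (chromosome 6) by 1.69, Cpt1a, whose enzyme admits fatty acids to mitochondria, by 1.67 and the kinase gene Pim2 by 1.65. All of these had no overlap between the groups, which the rule for naming required. Of the 12 largest rises 3 lay on chromosome 6, and of the 12 largest falls 0 did.

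The largest fall above that level was that of H19, a maternally expressed imprinted long noncoding RNA. It had 38.4, 36.4 and 32.1 CPM in DHX36 KO libraries, against 696, 621 and 597 CPM in FANCJ KO libraries. The level was 17.95-fold lower in DHX36 KO (log2 -4.17, SE 0.10, adjusted p = 3.91e-13). Fam111a, which encodes a protease that acts at replication forks and restricts viruses, had 7.20, 11.5 and 7.38 CPM against 68.3, 61.3 and 64.0 CPM (log2 -2.93, SE 0.15, adjusted p = 3.84e-09). The keratin gene Krt7 had 11.96, 15.6 and 16.7 CPM in DHX36 KO and 78.2, 79.4 and 65.7 CPM in FANCJ KO (log2 -2.34, SE 0.13, adjusted p = 8.5e-09). For H19, Fam111a and Krt7 every DHX36 KO library was several times below every FANCJ KO library.

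Further falls were in RNA binding, imprinted, thiol and matrix genes. Mbnl2, a regulator of alternative splicing, averaged 17.2 ± 2.75 CPM in DHX36 KO and 77.2 ± 15.3 CPM in FANCJ KO (log2 -2.14, SE 0.15, adjusted p = 7.43e-08). Plagl1, a paternally expressed zinc finger gene, averaged 18.2 ± 1.20 CPM in DHX36 KO and 68.9 ± 7.42 CPM in FANCJ KO (log2 -1.93, SE 0.11, adjusted p = 1.39e-08). Gsto1, a glutathione transferase, had -1.87 and Cth, which makes cysteine from cystathionine, -1.77. Col4a1 and Col4a2, the chains of basement membrane collagen that share a promoter region on chromosome 8, had -1.76 and -1.77. Klhl13, an adaptor of a ubiquitin ligase used in mitosis, had -1.76, and the stress kinase gene Nuak2 -1.75. Several genes named here overlap an annotated gene on the other strand (Col4a1 with Col4a2, Otx2 with Otx2os1, Cd37 with Tead2, Pfkp with Pitrm1, Fam111a with A330040F15Rik, Gsto1 with Cfap43, Hebp1 with Fam234b), and since the sources used here do not give the handling of strand, their reads could not be told apart. The same limit applies to list members named below, among them Tagln with Pcsk7, Dusp1 with Ergic1, B2m with Patl2, Tap1 with Psmb9 and Wnt5b with Fbxl14.

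**Figure D3:**
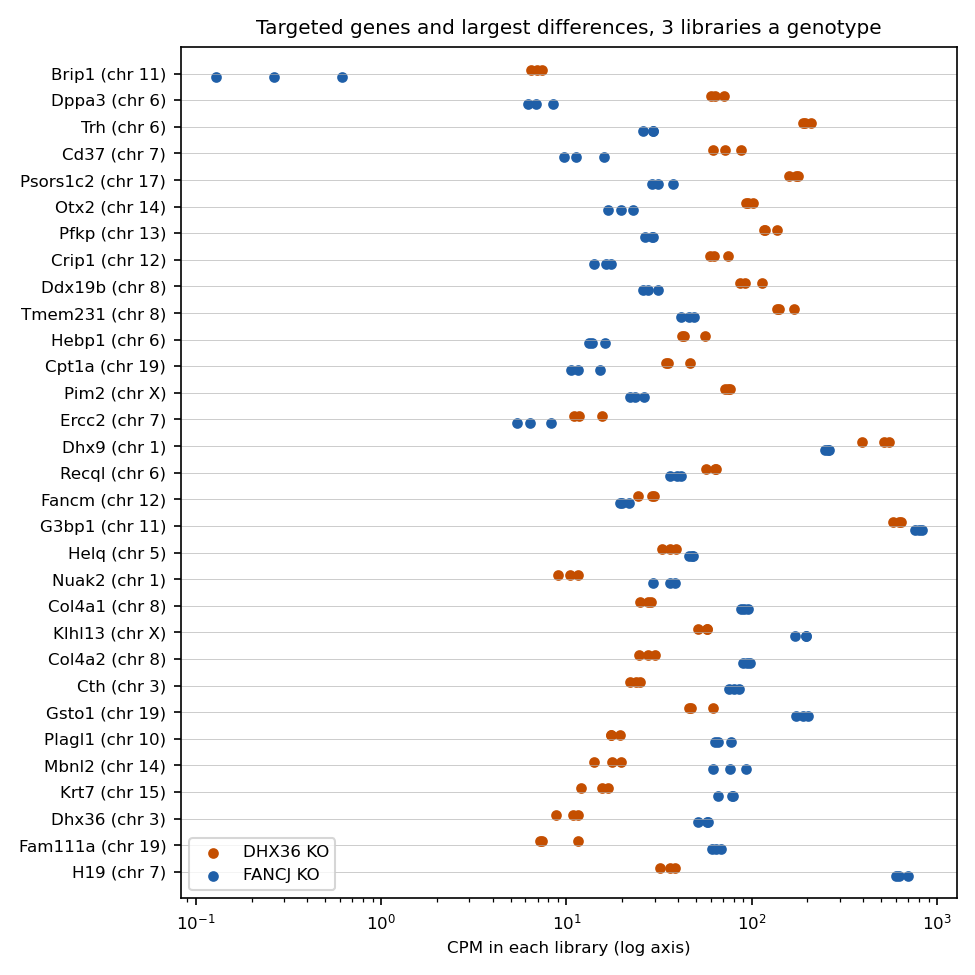
CPM of the targeted genes, the 12 largest rises, the 12 largest falls and the called G-quadruplex helicases named by the same rule in each of the 6 libraries, on a log axis, with DHX36 KO drawn above FANCJ KO in each row. The 2 colours do not mix within any row, which the naming rule required of the rises and falls and which held for 43.6% of all genes tested. H19 shows the widest separation on the lower side and Brip1 and Dppa3 on the higher side.

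The levels in the other genotypes, scaled over all 12 libraries, show on which side a difference lay, and are given as a description. Otx2 averaged 96.9 ± 4.41 CPM in DHX36 KO, 19.8 ± 3.07 in FANCJ KO, 126 ± 10.3 in the double knockout and 20.6 ± 6.81 in WT (SD, n = 3 each). Cd37 and Pfkp had the same order, with Cd37 at 74.0 ± 12.8 CPM in DHX36 KO, 12.3 ± 3.26 in FANCJ KO, 110.2 ± 3.22 in the double knockout and 12.9 ± 3.48 in WT and Pfkp at 124 ± 11.3 CPM in DHX36 KO, 28.2 ± 1.47 in FANCJ KO, 132 ± 16.8 in the double knockout and 30.9 ± 1.31 in WT. These 3 genes were thus near the WT level in FANCJ KO and high in both genotypes with the DHX36 knockout. Fam111a was low in those same genotypes, at 8.70 ± 2.43 CPM in DHX36 KO, 64.5 ± 3.46 in FANCJ KO, 12.3 ± 0.915 in the double knockout and 58.7 ± 3.40 in WT, and so was Krt7, at 14.8 ± 2.47 CPM in DHX36 KO, 74.4 ± 7.56 in FANCJ KO, 14.9 ± 2.85 in the double knockout and 51.3 ± 1.87 in WT.

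Other genes had levels on both sides of WT or followed neither pattern. H19 averaged 35.7 ± 3.26 CPM in DHX36 KO, 638 ± 50.7 in FANCJ KO, 593 ± 17.8 in the double knockout and 151 ± 5.70 in WT, so the single knockouts lay below and above WT and the double knockout was close to FANCJ KO. Dppa3 averaged 65.1 ± 5.51 CPM in DHX36 KO, 7.17 ± 1.14 in FANCJ KO, 40.9 ± 3.83 in the double knockout and 20.5 ± 3.18 in WT and Trh 198 ± 11.2 CPM in DHX36 KO, 28.2 ± 2.04 in FANCJ KO, 83.3 ± 14.9 in the double knockout and 37.0 ± 2.20 in WT. Both were highest in DHX36 KO and lowest in FANCJ KO, with the double knockout between DHX36 KO and WT. Plagl1 averaged 18.2 ± 1.19 CPM in DHX36 KO, 68.9 ± 7.34 in FANCJ KO, 37.6 ± 2.97 in the double knockout and 18.03 ± 5.33 in WT, so DHX36 KO was at WT level there and FANCJ KO was high. Mbnl2 averaged 17.2 ± 2.77 CPM in DHX36 KO, 77.1 ± 15.3 in FANCJ KO, 41.8 ± 3.74 in the double knockout and 47.2 ± 3.62 in WT, low in DHX36 KO and high in FANCJ KO, with the double knockout near WT.

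Genes for other helicases that act on G-quadruplexes differed little as a group. Of 24 tested, 5 were higher in DHX36 KO and 2 lower, with a median of 0.04, against 15.4% and 15.0% over all genes tested, and off chromosome 6 the numbers were 4 and 2 of 23. Dhx9, an RNA and DNA helicase of the same family as DHX36, had 394, 519.7 and 551 CPM in DHX36 KO libraries, against 248, 262 and 258 CPM in FANCJ KO libraries (log2 0.93, SE 0.10, adjusted p = 8.33e-06). Ercc2, the helicase XPD of transcription factor TFIIH and excision repair, averaged 12.7 ± 2.504 CPM in DHX36 KO and 6.67 ± 1.43 CPM in FANCJ KO (log2 0.94, SE 0.20, adjusted p = 0.00234). Recql, on chromosome 6, was at 0.64, close to the median of its chromosome. G3bp1, a stress granule protein with helicase activity, was lower (log2 -0.37, SE 0.074, adjusted p = 0.00131). The genes of the Bloom and Werner syndrome helicases, Blm (-0.35, adjusted p = 0.0524) and Wrn (-0.43, adjusted p = 0.184), did not pass the test. Helq was called lower (-0.40) and Fancm higher (0.44), but the adjusted p of Helq was 0.0552 at equal depth, and that of Fancm was 0.0575 without DHX36 KO library 1 and 0.0519 without FANCJ KO library 2.

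Of 30 factors that remove RNA from DNA or export mRNA, 4 were higher and 5 lower (3 and 5 of 29 off chromosome 6), shares near the 15.4% and 15.0% of all genes tested, with a median of 0.06. Ddx19b, an export helicase, was named above. Rad52, on chromosome 6, was at 1.10 and the splicing factor gene Bcas2 at -0.45. The median of the list was -0.00 and -0.01 without DHX36 KO library 2 or 3, and 3 members were lower without DHX36 KO library 1 or 3. Of 34 Fanconi and homologous recombination genes other than Brip1, 4 were higher and 1 lower, shares below those of all genes tested, with a median of 0.04. Fancd2, the protein ubiquitinated when the pathway is activated, averaged 28.3 ± 0.888 CPM in DHX36 KO and 15.9 ± 1.23 CPM in FANCJ KO (log2 0.83, SE 0.12, adjusted p = 0.00011), and Hmces, which shields abasic sites, differed by 0.81. Both lie on chromosome 6, and off it 2 of 32 members were higher. The list median was -0.02 without DHX36 KO library 2.

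Of 32 targets of p53, 7 were higher and 12 lower, against 15.4% and 15.0% of all genes tested, and the median was -0.11. Mdm2, which encodes the ligase that degrades p53, had 96.4, 99.6 and 112 CPM in DHX36 KO libraries, against 226, 247 and 235 CPM in FANCJ KO libraries (log2 -1.20, SE 0.084, adjusted p = 7.51e-08). It lies in the chromosome 10 window at 110 to 120 Mb. The translesion polymerase gene Polk averaged 18.1 ± 0.424 CPM in DHX36 KO and 42.3 ± 2.04 CPM in FANCJ KO (log2 -1.22, SE 0.11, adjusted p = 8.52e-07), Perp was at -1.05, Plk2 at -0.86 and the cell cycle inhibitor Cdkn1a at -0.40. Of the 7 higher targets 3 were on chromosome 6, among them Gadd45a (391, 363 and 392 CPM against 145, 149.9 and 149 CPM, log2 1.37, SE 0.076, adjusted p = 7.36e-09) and the damage sensor Xpc (0.83). Among the 29 targets elsewhere 4 were higher and 12 lower.

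DNA replication genes had 4 higher and 5 lower of 38 (3 and 5 of 37 off chromosome 6) and a median of -0.05. These shares, and those of the G2 and mitosis genes below, were under the 15.4% higher and 15.0% lower of all genes tested. Besides Fam111a the called members included the polymerase subunit Pola1 (-0.58), the sliding clamp Pcna (-0.27) and the helicase subunit Mcm2 (0.54, chromosome 6). Without FANCJ KO library 1 the number higher was 2. Of 26 genes of G2 and mitosis 2 were higher and 0 lower, with a median of 0.04, and the kinetochore gene Cenpf was one of the 2 (0.36). Its partner on that list, Cdc25b, was not called without DHX36 KO library 3. Histone genes with polyadenylated tags had 8 higher and 0 lower of 15, with a median of 0.30. H1fx (0.96) and H2afj (0.74) lie on chromosome 6, and off it 6 of 13 were higher with a median of 0.26. Without DHX36 KO library 3, 1 histone gene was called lower.

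**Figure D4:**
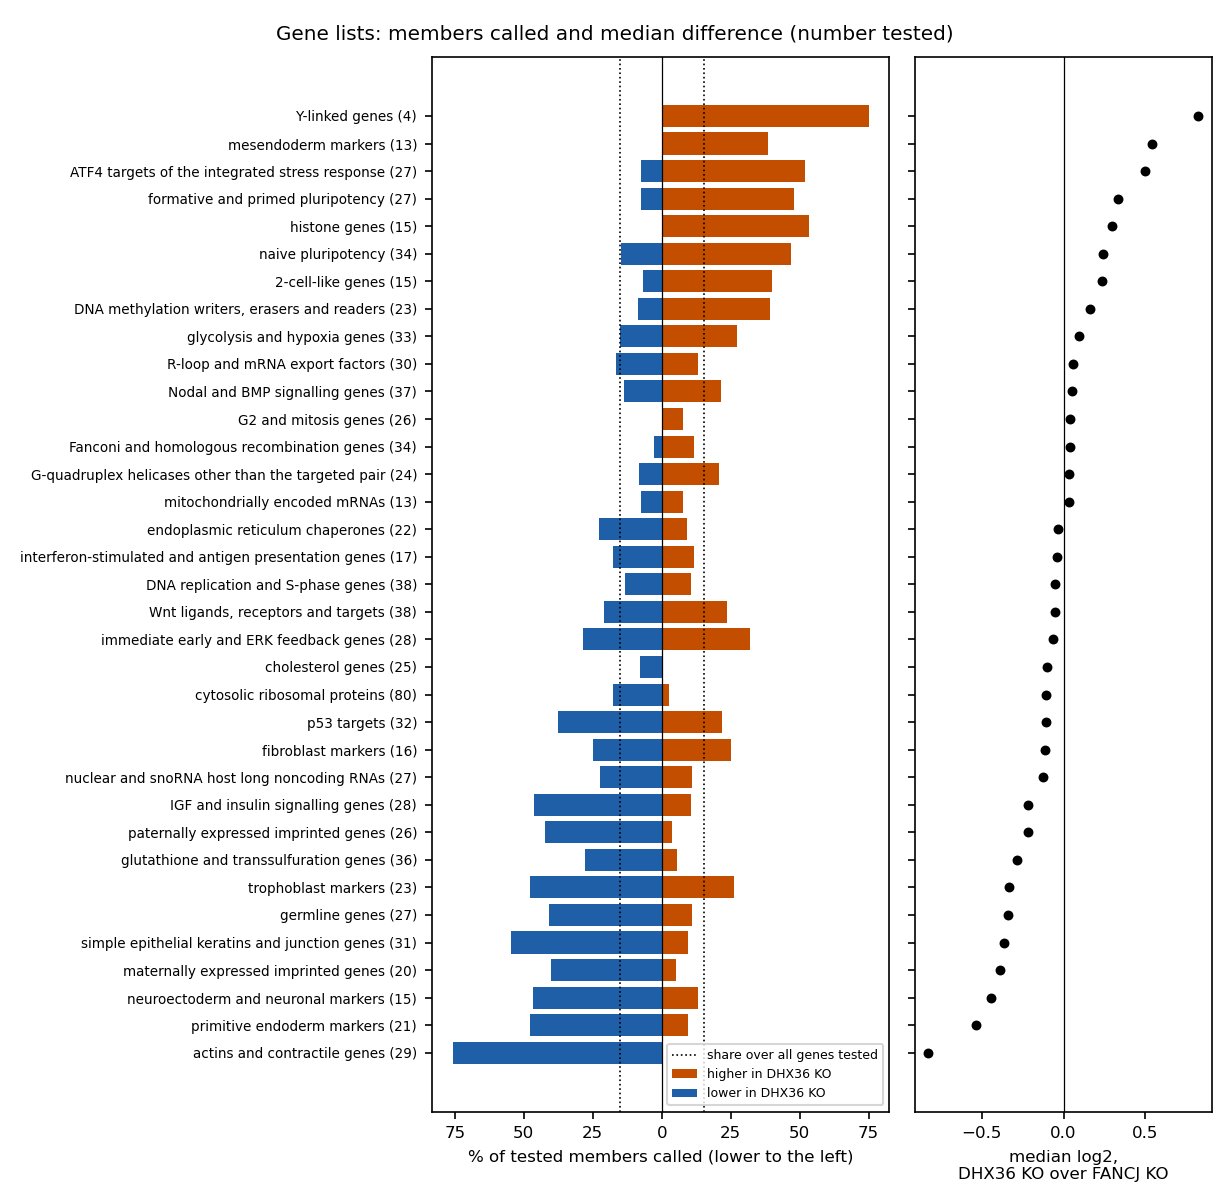
Share of tested members of each of 35 gene lists called higher (right) or lower (left) in DHX36 KO than in FANCJ KO, with dotted lines at the shares over all genes tested, 15.4% and 15.0% (left panel), and the median log2 difference of each list (right panel). Lists are ordered by median, from Y-linked genes at 0.82 at the top to actins and contractile genes at -0.83 at the bottom.

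Naive pluripotency genes were called higher in 16 of 34 cases and lower in 5 (15 and 5 of 32 off chromosome 6), with a median of 0.24. The shares over all genes tested were 15.4% higher and 15.0% lower, so the share of naive genes that were lower was near that of all genes tested. Beside Dppa3 the higher members included the Nodal co-receptor Tdgf1, at 213, 225 and 229 CPM in DHX36 KO libraries against 116, 119 and 116 CPM in FANCJ KO libraries (log2 0.93, SE 0.077, adjusted p = 3.76e-07), and Zfp57 (0.70), Fbxo15 (0.66) and Dppa2 (0.62). Zfp57, which keeps imprints methylated, lost its call by DESeq2 (adjusted p = 0.0859) and without any single library but FANCJ KO library 2. The core factor genes Pou5f1 (0.55), Sox2 (0.41) and Klf4 (0.45) were higher by less. Tfcp2l1 (-0.54) and Gbx2 (-0.59), transcription factors of the naive network, and the demethylase gene Tet2 (-0.52) were lower. Nanog (-0.02, adjusted p = 0.892, chromosome 6), Esrrb (0.09, adjusted p = 0.472) and Zfp42 (0.10, adjusted p = 0.355) did not pass the test.

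Formative and primed genes were called higher in 13 of 27 cases and lower in 2, against 15.4% and 15.0% of all genes tested. Their median was 0.33, and the called members lay off chromosome 6. Lef1, a nuclear effector of Wnt signalling, had 56.2, 55.5 and 66.5 CPM in DHX36 KO libraries, against 19.6, 19.12 and 20.6 CPM in FANCJ KO libraries (log2 1.59, SE 0.11, adjusted p = 8.53e-08). Pim2 had 76.3, 71.9 and 74.8 CPM against 23.5, 21.9 and 26.1 CPM (log2 1.65, SE 0.10, adjusted p = 2.39e-08), and the 2 groups were again apart. The de novo methyltransferase gene Dnmt3a averaged 215 ± 11.2 CPM in DHX36 KO and 74.1 ± 4.49 CPM in FANCJ KO (log2 1.54, SE 0.085, adjusted p = 7.36e-09) and Dnmt3b 234 ± 11.4 CPM in DHX36 KO and 142 ± 3.14 CPM in FANCJ KO (log2 0.72, SE 0.077, adjusted p = 5.06e-06). Zic5 (1.10), Fgf5 (1.01), a growth factor of the postimplantation epiblast, Tcf15 (0.93) and Etv5 (0.74) were higher as well. Krt18 (-1.34) and Lin28b were the members called lower, Lin28b with an adjusted p of 0.0557 without DHX36 KO library 1 and 0.0568 without FANCJ KO library 1.

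Of 15 tested genes of the 2-cell-like state 6 were higher and 1 lower, against 15.4% and 15.0% of all genes tested. Their median was 0.24, which was 0.43 without FANCJ KO library 3. Usp17la had 10.7, 12.3 and 10.8 CPM in DHX36 KO libraries, against 3.48, 4.51 and 4.12 CPM in FANCJ KO libraries (log2 1.47, SE 0.19, adjusted p = 3.43e-05), and Zscan4d had 71.5, 68.7 and 69.0 CPM against 37.9, 37.7 and 29.0 CPM (log2 0.99, SE 0.11, adjusted p = 6.09e-06). The 2 groups did not overlap for either gene. Tmem92 was lower (-1.71). Usp17l and Zscan4 genes have near-identical copies, so their counts could be shared among copies.

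Among writers, erasers and readers of DNA methylation 9 of 23 were higher and 2 lower, with a median of 0.16, and 7 of the 19 members off chromosome 6 were higher, with a median of 0.10. For this list and the imprinted genes below, the shares over all genes tested were 15.4% higher and 15.0% lower. Beyond Dnmt3a, Dnmt3b and Dppa3, the glycosylase gene Mbd4 (1.05, chromosome 6) and the hydroxymethylcytosine reader Uhrf2 (0.71) were higher. The maintenance methyltransferase Dnmt1 was at -0.10 (adjusted p = 0.362). Among imprinted genes more were called lower than higher. Of 20 maternally expressed genes 1 was higher and 8 lower (median -0.39), and of 26 paternally expressed genes 1 was higher and 11 lower (1 and 9 of 22 off chromosome 6, median -0.22, and -0.36 without FANCJ KO library 2). The number higher was 0 to 2 in either list when single libraries were left out. Meg3, a maternally expressed long noncoding RNA of the Dlk1 locus, averaged 52.0 ± 5.36 CPM in DHX36 KO and 114 ± 19 CPM in FANCJ KO (log2 -1.12, SE 0.12, adjusted p = 5.07e-06), and Osbpl5 differed by -1.07.

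Paternally expressed genes fell at several separate loci. Nnat, a neuronal membrane gene inside an intron of Blcap, had 132, 165 and 156 CPM in DHX36 KO libraries, against 466, 361 and 418 CPM in FANCJ KO libraries (log2 -1.46, SE 0.10, adjusted p = 7.75e-08). The zinc finger gene Peg3 had 76.1, 62.7 and 63.4 CPM against 166, 164 and 165 CPM (log2 -1.29, SE 0.09, adjusted p = 7.51e-08). Igf2, the insulin-like growth factor gene beside H19, averaged 323 ± 14.5 CPM in DHX36 KO and 594 ± 37.0 CPM in FANCJ KO (log2 -0.88, SE 0.078, adjusted p = 6.76e-07), so both members of that locus were lower although they are expressed from opposite parental copies. Sgce (31.3, 33.6 and 44.5 CPM against 75.2, 74.5 and 71.8 CPM, log2 -1.01, SE 0.12, adjusted p = 1.31e-05) and its neighbour Peg10 (-0.62) lie on chromosome 6 and were lower, against the direction of that chromosome. Mest, on chromosome 6 too, did not pass the test (-0.19, adjusted p = 0.0959).

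Markers of lineages outside the epiblast were measured to see which other cells the cultures could hold. Primitive endoderm markers, of the lineage that lines the yolk sac, were called lower in 10 of 21 cases and higher in 2 (1 without FANCJ KO library 1). Of all genes tested 15.0% were lower and 15.4% higher. The median of the list was -0.54. The summed level of all markers on the list was 952 to 963 CPM in DHX36 KO libraries and 1301 to 1331 CPM in FANCJ KO libraries. The largest part of that sum was Sparc, at a mean of 356.8 CPM in DHX36 KO and 368.5 CPM in FANCJ KO, which did not pass the test (adjusted p = 0.681). Serpinh1 (168 and 244 CPM) came next, so the sum is no measure of primitive endoderm cells alone. Ttr was at 0 counts in all 6 libraries, and Afp had 3 counts over them. Col4a1 had 27.5, 28.7 and 25.1 CPM against 87.3, 95.5 and 90.8 CPM and Col4a2 24.6, 27.6 and 29.97 CPM against 94.5, 89.5 and 97.4 CPM. The laminin gene Lama1 averaged 6.91 ± 0.807 CPM in DHX36 KO and 20.5 ± 4.69 CPM in FANCJ KO (log2 -1.57, SE 0.18, adjusted p = 1.1e-05), the proteoglycan gene Srgn 7.99 ± 0.948 CPM in DHX36 KO and 20.1 ± 1.92 CPM in FANCJ KO (log2 -1.32, SE 0.15, adjusted p = 1.15e-05), the regulator Gata4 3.07 ± 1.35 CPM in DHX36 KO and 7.599 ± 0.607 CPM in FANCJ KO (log2 -1.25, SE 0.27, adjusted p = 0.00236) and the endocytic adaptor Dab2 20.1 ± 1.84 CPM in DHX36 KO and 41.1 ± 4.40 CPM in FANCJ KO (log2 -1.03, SE 0.12, adjusted p = 1.42e-05). The 2 members called higher were Amn (1.70, adjusted p = 0.00718), part of an endocytic receptor, and Nid2 (0.44, adjusted p = 0.0058), a basement membrane gene, and Amn was the one not called without FANCJ KO library 1 (adjusted p = 0.0515). Amn had 3, 6 and 3 counts in FANCJ KO libraries and passed the expression filter only through DHX36 KO, where it was high. The lineage regulators Gata6 (-0.28, adjusted p = 0.416) and Sox17 (-0.32, adjusted p = 0.29) did not pass the test. In bulk samples fewer cells of a type and less RNA per cell cannot be told apart, and the part of such cells in any other result was not tested.

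Trophoblast markers were called lower in 11 of 23 cases and higher in 6, against 15.0% and 15.4% of all genes tested. Their median was -0.34, and off chromosome 6 they were lower in 10 and higher in 4 of 20 with a median of -0.47. Their sum was 1879 to 2386 CPM in DHX36 KO libraries and 3010 to 3760 CPM in FANCJ KO libraries, and Tpbpa was at 0 counts. The largest part of that sum was the imprinted gene Peg10, at a mean of 1202 CPM in DHX36 KO and 1844 CPM in FANCJ KO. Krt8 (274 and 636 CPM) and Krt18 (104 and 264 CPM), which the epithelial list holds too, came next. The sum is therefore no measure of trophoblast cells alone. Gata3 (3.80 ± 0.875 CPM in DHX36 KO and 12.4 ± 1.59 CPM in FANCJ KO, log2 -1.71, SE 0.21, adjusted p = 1.6e-05), Tfap2a (-1.59) and Cited1 (-1.503) were lower, as were the keratins that epithelial lists hold too. Gata2 was higher, with 59.0, 80.4 and 68.3 CPM against 22.04, 28.8 and 29.2 CPM (log2 1.38, SE 0.13, adjusted p = 1.94e-06), and so was Tead4 (0.69), both on chromosome 6, with Eomes (0.73) off it. Neuroectoderm markers had 2 higher and 7 lower of 15, the share higher being near that of all genes tested. They had a median of -0.44 and sums of 536 to 559 CPM against 734 to 740 CPM. Among them the secreted peptide gene Vgf had 74.6, 93.6 and 83.8 CPM against 195, 201 and 196 CPM (log2 -1.24, SE 0.09, adjusted p = 9.91e-08), and Sox1, at 1.23 ± 0.0316 CPM in DHX36 KO and 4.18 ± 0.789 CPM in FANCJ KO, was low in both genotypes (log2 -1.78, SE 0.32, adjusted p = 0.000567).

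Mesendoderm markers had 5 higher and 0 lower of 13 (4 and 0 of 12 off chromosome 6), with a median of 0.54 and sums of 175 to 195 CPM in DHX36 KO and 109 to 129 CPM in FANCJ KO. The median was 0.24 without FANCJ KO library 1, and 3 members were higher without that library, without DHX36 KO library 1 or 3, or by DESeq2. T, the gene for brachyury of the primitive streak, had 18.1, 24.6 and 21.5 CPM in DHX36 KO libraries, against 1.68, 1.99 and 2.88 CPM in FANCJ KO libraries (log2 3.33, SE 0.22, adjusted p = 4.99e-08). It carried the largest difference of any lineage marker on these lists, and Eomes, Hand1 (0.60) and 2 less certain genes accompanied it. Cdx2 and Evx1, the second on chromosome 6, were those 2, with adjusted p-values of 0.0799 and 0.114 by DESeq2. Of the list's defining genes Cer1 and Msgn1 were at 0 counts in all 6 libraries. Fibroblast markers had 4 higher and 4 lower of 16 (3 and 4 of 15 off chromosome 6), with a median of -0.12 and sums of 1396 to 1522 CPM in DHX36 KO, against 1996 to 2048 CPM in FANCJ KO. Without Acta2 and Tagln, which the contractile list holds too, the sums were 1112 to 1210.0 CPM in DHX36 KO and 1063 to 1121 CPM in FANCJ KO. Thy1 (16.4, 15.1 and 13.5 CPM against 3.87, 4.65 and 6.59 CPM, log2 1.61, SE 0.20, adjusted p = 1.82e-05) and Col3a1 (1.00) were higher, while Tagln, Acta2 and Col1a1 (-0.63) were lower. Dcn and Lum, defining genes of fibroblasts, had 4 and 5 counts over the 6 libraries.

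Actins and contractile genes had the largest share of members called in 1 direction among the 35 lists, 22 of 29 lower and 0 higher (21 and 0 of 28 off chromosome 6). Of all genes tested 15.0% were lower and 15.4% higher. The median of this list was -0.83. Its sum was 13170 to 13600 CPM in DHX36 KO libraries and 19760 to 21730 CPM in FANCJ KO libraries. Acta2, smooth muscle actin, had 178, 161 and 155 CPM against 529, 534 and 508 CPM (log2 -1.67, SE 0.08, adjusted p = 2.07e-09). Tagln, the actin-binding protein transgelin, had 134, 124 and 114 CPM against 379.8, 399.8 and 419 CPM (log2 -1.69, SE 0.084, adjusted p = 2.94e-09). The difference was of like size for both, with a narrow spread between libraries. Myl9, a myosin light chain, averaged 3.05 ± 0.743 CPM in DHX36 KO and 12.1 ± 1.03 CPM in FANCJ KO (log2 -2.02, SE 0.22, adjusted p = 5.02e-06), and the skeletal actin gene Acta1 and calponin Cnn1 were at -1.36 and -1.43. Tropomyosin Tpm1 (-1.11) and caldesmon Cald1 (-1.19, on chromosome 6 and against its direction) followed, and the cytoplasmic actins Actb (-0.44) and Actg1 (-0.46) were lower by less. Srf, the gene of the transcription factor that drives many of these genes, was at 0.13 (adjusted p = 0.484). Without DHX36 KO library 3, 1 member was called higher.

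Simple epithelial keratin and junction genes were called lower in 17 of 31 cases and higher in 3, against 15.0% and 15.4% of all genes tested. Their median was -0.36, with sums of 2512 to 2576 CPM in DHX36 KO, against 3862 to 4003 CPM in FANCJ KO. The keratins Krt8 and Krt18 form the filaments of simple epithelia. Krt8 had 304, 263 and 256 CPM against 612, 629 and 668 CPM (log2 -1.21, SE 0.084, adjusted p = 7.15e-08) and Krt18 105, 113 and 94.1 CPM against 262, 283 and 245 CPM (log2 -1.34, SE 0.09, adjusted p = 5.49e-08). Krt19 (-1.28) and Krt20 (-1.83) were lower as well, and the 3 DHX36 KO libraries lay below the 3 FANCJ KO libraries for all these keratins. Among junction genes the desmosomal Dsp was at -1.08, the claudins Cldn6 and Cldn4 at -0.98 and -0.94, and E-cadherin, Cdh1, at -0.29. The splicing regulator Esrp1 was higher (0.57). With Epcam and Dsg2 it made up the 3 higher members, of which 1 was called without DHX36 KO library 1 or 3 or FANCJ KO library 3.

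**Figure D5:**
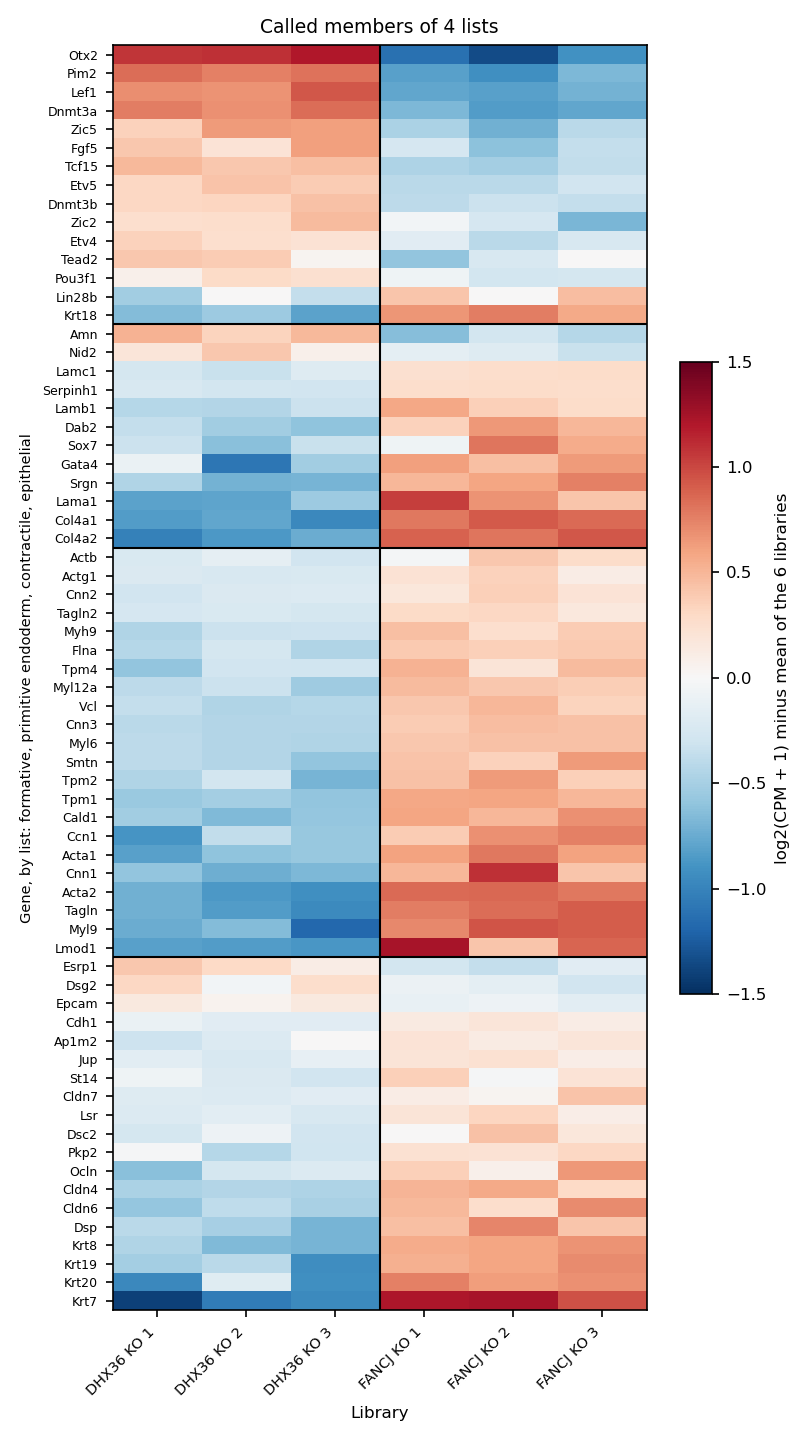
Log2(CPM + 1) minus the mean of the 6 libraries for each called member of the formative, primitive endoderm, contractile and epithelial lists (rows, in 4 blocks) in the 3 DHX36 KO and 3 FANCJ KO libraries (columns). Red marks values above the mean and blue below it; the formative block is mostly red in DHX36 KO, from Otx2 downwards, and the contractile block is blue there for all 22 members.

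Targets of ATF4, the factor that the integrated stress response induces, were called higher in 14 of 27 cases and lower in 2. Of all genes tested 15.4% were higher and 15.0% lower. The median of the targets was 0.50, and off chromosome 6 they were higher in 12 and lower in 2 of 24 with a median of 0.47. Atf4 itself had 196, 196 and 202 CPM in DHX36 KO libraries, against 89.7, 89.6 and 95.5 CPM in FANCJ KO libraries (log2 1.12, SE 0.078, adjusted p = 7.51e-08). Chac1, a glutathione-degrading enzyme gene that ATF4 induces, averaged 8.54 ± 0.517 CPM in DHX36 KO and 3.80 ± 0.490 CPM in FANCJ KO (log2 1.18, SE 0.21, adjusted p = 0.000443), the hormone gene Stc2 3.98 ± 0.732 CPM in DHX36 KO and 1.27 ± 0.798 CPM in FANCJ KO (log2 1.59, SE 0.38, adjusted p = 0.00518) and the mTOR inhibitor gene Ddit4 39.6 ± 3.68 CPM in DHX36 KO and 19.99 ± 3.56 CPM in FANCJ KO (log2 1.00, SE 0.14, adjusted p = 5.15e-05). Mthfd2, of mitochondrial folate metabolism, was at 0.96 (chromosome 6). Genes of this list that make cysteine and serine went the other way, Cth with 21.9, 23.6 and 24.8 CPM against 75.03, 85.8 and 80.1 CPM and Phgdh at -0.71. Asns, Atf3 and Ddit3, further targets, did not pass the test (-0.22, -0.41 and -0.24, with adjusted p-values of 0.0794, 0.129 and 0.682).

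Glutathione and transsulfuration genes were called lower in 10 of 36 cases and higher in 2, with a median of -0.29, which was -0.17 and -0.16 without FANCJ KO library 1 or 2. The conjugating enzyme gene Gsto1 had 61.6, 45.7 and 46.9 CPM in DHX36 KO libraries, against 189.8, 201 and 174 CPM in FANCJ KO libraries. Gstm2 averaged 14.1 ± 1.77 CPM in DHX36 KO and 41.4 ± 5.24 CPM in FANCJ KO (log2 -1.54, SE 0.14, adjusted p = 6.76e-07) and its neighbour Gstm1 differed by -1.14, although genes of that cluster resemble each other and reads could be exchanged. Gss, which completes glutathione synthesis, was at -1.10, while Gpx4, whose enzyme reduces lipid peroxides, was higher (0.58). Glycolysis and hypoxia genes had 9 higher and 5 lower of 33, and 6 and 4 of 26 off chromosome 6. For both lists the shares over all genes tested were 15.4% higher and 15.0% lower. The share of glycolysis and hypoxia genes that were lower was thus near that of all genes tested. Pdk1, which keeps pyruvate out of mitochondria, had 130.3, 137 and 122 CPM against 54.3, 64.1 and 55.0 CPM (log2 1.16, SE 0.092, adjusted p = 2.34e-07), and the mitophagy receptor Bnip3 was at 0.89. The glucose transporters Slc2a1 (-0.83) and Slc2a3 (-0.78, on chromosome 6) and the regulator Pfkfb3 (15.2 ± 1.02 CPM in DHX36 KO and 36.8 ± 3.89 CPM in FANCJ KO, log2 -1.28, SE 0.13, adjusted p = 2.07e-06) were lower. The genes Gapdh (0.47), Tpi1 (0.50) and Hk2 (0.66), often read as markers of glycolysis, all lie on chromosome 6.

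Signalling genes were called in both directions within each pathway, beside 15.4% higher and 15.0% lower over all genes tested. Of 28 IGF and insulin genes 13 were lower and 3 higher (12 and 3 of 27 off chromosome 6), with a median of -0.22 (-0.34 without DHX36 KO library 3). The binding protein gene Igfbp4 (46.6 ± 7.80 CPM in DHX36 KO and 131 ± 26.6 CPM in FANCJ KO, log2 -1.5, SE 0.14, adjusted p = 1.03e-06), the adaptor Irs2 (26.2 ± 2.66 CPM in DHX36 KO and 62.3 ± 1.37 CPM in FANCJ KO, log2 -1.24, SE 0.10, adjusted p = 4.4e-07) and the receptor Igf1r (-0.90) were lower, beside Igf2, and Igfbp5 was higher (1.77). Wnt genes had 9 higher and 8 lower of 38 (7 and 7 of 34 off chromosome 6). The largest difference was a higher one, that of the ligand gene Wnt5b on chromosome 6, with 35, 19 and 26 counts in DHX36 KO libraries, against 3, 3 and 3 in FANCJ KO libraries (log2 2.73, SE 0.44, adjusted p = 0.000219). Wnt5b passed the expression filter only through DHX36 KO, where it was high, and the size of its difference is uncertain at such counts. Wnt3a, another ligand gene, was called higher as well (1.41), and lost its call by DESeq2 (adjusted p = 0.0917), with the replicate block (0.057) and without DHX36 KO library 2 or 3 or FANCJ KO library 1 or 2. The ligand genes Wnt6 (2.01 ± 0.612 CPM in DHX36 KO and 10.5 ± 0.505 CPM in FANCJ KO, log2 -2.43, SE 0.24, adjusted p = 2.22e-06) and Wnt7b (-1.44) and the carrier Wls, which brings Wnt proteins to the cell surface, with 40.5, 35.0 and 36.3 CPM against 73.3, 85.2 and 90.8 CPM (log2 -1.15, SE 0.10, adjusted p = 9.05e-07), were lower. Porcn, the enzyme that attaches their lipid, was higher (45.5, 45.7 and 41.0 CPM against 18.4, 22.6 and 18.3 CPM, log2 1.15, SE 0.12, adjusted p = 4.11e-06), as were the targets Lef1, Notum (1.01) and Sp5 (0.76), while Axin2 did not pass (-0.18, adjusted p = 0.505). The median of the Wnt list was -0.05, and it was 0.07 and 0.06 without DHX36 KO library 2 or FANCJ KO library 1.

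Within Nodal and BMP signalling 8 of 37 genes were higher and 5 lower (7 and 5 of 36 off chromosome 6), against 15.4% and 15.0% of all genes tested. There were 3 lower without DHX36 KO library 3 or by DESeq2. The median was 0.05, and it was 0.11 and 0.12 without DHX36 KO library 1 or FANCJ KO library 2. The Nodal antagonists Lefty2 (33.7, 26.0 and 28.8 CPM in DHX36 KO against 7.86, 8.63 and 10.7 CPM in FANCJ KO, log2 1.73, SE 0.16, adjusted p = 8.18e-07) and Lefty1 (1.24), which are themselves Nodal targets, were higher. Nodal did not pass the test (0.21, adjusted p = 0.119). The ligand gene Bmp4 had 172, 159.6 and 171 CPM against 85.1, 71.4 and 72.7 CPM (log2 1.13, SE 0.089, adjusted p = 2.22e-07). Of the Id genes, targets of BMP, Id1 (0.40) and Id3 (0.60) were higher and Id2 was lower (28.3 ± 2.06 CPM in DHX36 KO and 72.4 ± 6.15 CPM in FANCJ KO, log2 -1.34, SE 0.10, adjusted p = 1.84e-07). Immediate early and ERK feedback genes had 9 higher and 8 lower of 28 and a median of -0.07. The feedback inhibitor Spry4 (107 ± 5.46 CPM in DHX36 KO and 44.7 ± 6.65 CPM in FANCJ KO, log2 1.26, SE 0.11, adjusted p = 4.66e-07) and Egr1 (0.87) were higher, and the phosphatase Dusp1 (82.2, 84.3 and 92.6 CPM against 175, 182 and 187 CPM, log2 -1.07, SE 0.082, adjusted p = 1.68e-07), Ier3 (-1.07), Fos (-0.61) and Jun (-0.55) were lower.

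Germline genes were called lower in 11 of 27 cases and higher in 3, 1 without DHX36 KO library 1 or FANCJ KO library 2, with a median of -0.34. For this list and the Y-linked genes below, the shares over all genes tested were 15.0% lower and 15.4% higher. Prdm1, a regulator of germ cell specification, averaged 1.33 ± 0.461 CPM in DHX36 KO and 6.82 ± 1.13 CPM in FANCJ KO (log2 -2.40, SE 0.31, adjusted p = 3.14e-05), and the piRNA factor Piwil4 had 4, 4 and 1 counts in DHX36 KO libraries, against 19, 15 and 16 in FANCJ KO libraries (log2 -2.80, SE 0.51, adjusted p = 0.000694). Hormad1 (-1.42) and Dazl (-0.93) were lower and Nanos3 higher (1.48). Piwil4 passed the expression filter only through FANCJ KO and Nanos3 only through DHX36 KO, the genotype where each was high. Y-linked genes were higher, 3 of 4 tested, with a median of 0.82. Uba1y had 13.9, 14.97 and 9.96 CPM against 3.996, 4.25 and 3.29 CPM (log2 1.71, SE 0.22, adjusted p = 2.36e-05) and Eif2s3y 31.8, 36.1 and 33.2 CPM against 15.3, 15.1 and 18.1 CPM (log2 1.06, SE 0.12, adjusted p = 1.2e-05). The call of the third, Ddx3y (0.42), was lost without DHX36 KO library 1 or 3 or FANCJ KO library 1 or 3 (adjusted p = 0.0685, 0.0890, 0.0717 and 0.0680).

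The remaining lists had medians between -0.12 and 0.03. Over all genes tested 15.4% were higher and 15.0% lower, and each of these lists had a smaller share higher. Cytosolic ribosomal protein genes had 2 higher and 14 lower of 80 (1 and 14 of 79 off chromosome 6), with a median of -0.11 and 5 lower without FANCJ KO library 1. Their share lower was near that of all genes tested. Rplp0 (0.58) and Rpl32 (0.60, chromosome 6) were the higher members and Rps26 (-0.47) had the largest fall, in a family with many processed copies in the genome. Rps26 and Rpl41 (-0.37), the next largest fall, both lie in the chromosome 10 window at 120 to 130 Mb. Interferon and antigen presentation genes had 2 higher and 3 lower of 17 (median -0.04), 1 higher without DHX36 KO library 1, with the class I light chain B2m at 33.7 ± 1.91 CPM in DHX36 KO and 67.2 ± 3.69 CPM in FANCJ KO (log2 -0.99, SE 0.10, adjusted p = 2.19e-06), Tap1 at -0.96 and the heavy chain H2-K1 at 0.64. Of 27 nuclear and snoRNA host long noncoding RNAs 3 were higher and 6 lower (median -0.12), with Snhg3 (log2 -1.49, SE 0.16, adjusted p = 4.57e-06) and Lncenc1 (log2 -0.83, SE 0.076, adjusted p = 9.42e-07) lower, and between 0 and 1 member was higher when any single library was left out. Snhg3 overlaps the gene Rcc1 on the same strand, so its counts could belong in part to Rcc1. Endoplasmic reticulum chaperones had 2 higher and 5 lower of 22 (median -0.03), and Calr was at -0.42. Without DHX36 KO library 1, 2 or 3 or FANCJ KO library 1 or 3, only 2 or 3 chaperones were lower, and 1 was higher without DHX36 KO library 1 or 3. Cholesterol genes had 0 higher and 2 lower of 25 (median -0.10), with 1 lower without DHX36 KO library 1 or FANCJ KO library 1 or 2 and 4 lower without FANCJ KO library 3. Mitochondrially encoded mRNAs had 1 higher, mt-Nd4 (0.30), and 1 lower of 13 (median 0.03). The lower one, mt-Co1, had 2759, 3512 and 11250.0 CPM in DHX36 KO libraries, against 12320.0, 12240.0 and 12370.0 CPM in FANCJ KO libraries, so DHX36 KO library 3 lay near the FANCJ KO level. Its call was lost without DHX36 KO library 1 or 2 or FANCJ KO library 1 (adjusted p = 0.0970, 0.111 and 0.0653), by DESeq2 (0.189) and among genes of at least 20 CPM (0.0615).

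G-quadruplex motifs in gene sequence were set beside the differences as a description, with no test. A motif in the promoter window was present for 3109 of the tested genes and absent for 6461, with medians of 0.02 and -0.00, 17.6% against 14.2% called higher and 16.9% against 14.3% called lower. For the 5′ untranslated region (UTR), read on the transcribed strand of annotated transcripts, 1394 genes with a motif had 20.1% higher and 13.6% lower, and 10316 genes without one had 14.7% and 15.5%. With loops of up to 12 bases the order of the lower shares turned, 15.7% with a motif and 15.1% without, while 17.4% and 14.8% were higher. For the 3′ UTR, 1527 genes with a motif had 19.8% higher and 13.7% lower, against 14.7% and 15.5% of the 10219 genes without one, with medians of 0.09 and -0.01. Off chromosome 6 the 3′ UTR shares were 17.9% and 14.2% with a motif and 12.7% and 15.9% without.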

How the data were processed

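Transcripts of 12 libraries were counted, and the deposited values used here are the authors' whole-number counts per gene, not normalised. The submitters' processing notes name BWA, GRCm38 and hg38 without versions. The sources used here do not give the counting tool, the treatment of molecular barcodes or the use of strand.

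The 92 spike-in rows were dropped. Genes of the 6 libraries compared passed edgeR's default expression filter by genotype and were tested with edgeR 4.0.16 (R 4.3.3) by its quasi-likelihood F test after normalisation by trimmed means, with genotype as the only term and Benjamini-Hochberg adjustment over all genes tested. SE is the size of the log2 difference over the root of F. CPM used the normalised totals. Of 32285 gene identifiers 32158 matched GENCODE M21 (GRCm38), and promoters came from RefSeq (GRCm38.p6). The procedure was tested on simulated data.

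Genes were named by a rule: Dhx36 and Brip1, the 12 genes that differed most in each direction (at least 20 CPM, no overlap between genotypes, no predicted name), and up to 4 called members per direction of each of 35 gene lists. Further list members were added after their values were seen, and some that the rule names are not reported here. The comparison, the members and the lists were chosen with earlier results of these data known. Low-count genes passed the filter if either genotype reached it. Alternatives were DESeq2 1.42.0, other size factors, other filters, all 12 libraries, a replicate block, equal depth, leaving out each library, and, added after the data were seen, leaving out chromosome 6.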

Additional observations from a re-analysis of the deposited data

How the results depend on the processing

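The 4 counts of differing genes stayed within 1.5 times of the reported values under DESeq2, RLE size factors, upper quartile scaling, all 12 libraries, no filter on low counts, equal depth, the replicate block and removal of chromosome 6 (2933 to 4052 genes), and without any single library (2954 to 3256 genes). With only genes of at least 20 CPM, 5717 rather than 12184, they were 2046 genes, 1068 higher, 978 lower and 197 at least 2-fold. The chromosome 6 median of 0.52 was 0.55 without a filter, 0.49 at equal depth, 0.55 with upper quartile scaling, and 0.50 to 0.52 without any single library. The replicate block gave 3678 genes, 3521 of them shared with the reported ones. Same-numbered libraries had deviations that correlated at 0.01, 0.03 and 0.05, and those with different numbers at -0.05 to 0.02. Correlations this small cannot show whether the numbers pair the samples. Of 205 named genes 162 kept their call and direction under every alternative that gave a value, 43 lost it under at least 1, and 0 changed sign. With genes of at least 20 CPM the medians of 12 lists moved beyond the spread between libraries, among them formative genes (0.59), 2-cell-like genes (0.88), maternally (-0.54) and paternally expressed imprinted genes (-0.44) and Wnt genes (0.13). Medians near 0 changed sign in some alternatives for the Wnt, R-loop, Fanconi, replication, chaperone, interferon and mitochondrial lists, and the cause was not tested. Depth limits low genes most, and counting error is largest in FANCJ KO library 3, the shallowest.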
